A study of Mus musculus with 7 samples.

Results

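Interferon-stimulated genes (ISGs) were followed across 2 genetic mouse models of glioblastoma (GBM), a malignant brain tumor of glial character. The ISGs are 42 of the 49492 genes of a count table of bulk RNA-seq and were taken by their names. A total of 7 libraries was measured, 3 of NSCHRas-shp53 tumors and 4 of NPCTKO tumors, all from C57BL/6 mice labelled as 3 months old. NSCHRas-shp53 tumors came from a lentivirus that carries a short hairpin RNA against Trp53 and a constitutively active human HRAS, delivered to the ventricular-subventricular zone of adult mice, and the tumor tissue was taken whole, without a sort. NPCTKO tumors came from embryonic neocortical precursors given, by in utero electroporation, plasmids for Cas9, luciferase and guide RNAs against tumor suppressors, Trp53 and Nf1 among them, together with an EGFP or DsRed label integrated by piggyBac, and the labelled cells were sorted by FACS before RNA was isolated. Both models thus target Trp53, no library comes from a brain without tumor, and the genetic model cannot be told apart from the preparation (whole tissue against sorted cells). The reporter of each NPCTKO sample is not named, and the labels do not say whether each sample is a mouse of its own, so that p-values measure the spread between these samples, which may be in part technical.

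Interferons are secreted proteins that cells release when they sense viral or misplaced nucleic acids. Type I interferons act through JAK1 and TYK2 on the complex ISGF3, of which STAT2 and IRF9 are parts and which binds the interferon-stimulated response element (ISRE), whereas interferon gamma acts through JAK1 and JAK2 and the gamma-activated site (GAS). The genes they switch on include sensors of RNA, the OAS enzymes, the IFIT proteins, the ubiquitin-like ISG15, and the large GTPases of the guanylate-binding protein (GBP) and immunity-related GTPase (IRG) families. In brain, microglia and macrophages that enter from blood are known to respond strongly to interferons, but most cell types can respond.

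The response to interferon is read through short motifs in promoters. RefSeq promoters (GRCm38.p6, 250 bases before to 50 after a start) were matched to 32 of the 42 genes. The ISRE core, which is GAAA, any 2 bases and GAAA in a row, searched on both strands, occurs in the promoter of 19 of these 32 genes (59.4%), against 3.99% of 27025 genes, and the GAS letters TTCNNNGAA, which read the same on both strands, occur in 11 (34.4%), against 9.55% of all genes. Of the 32 genes, 12 hold the ISRE core alone, 4 the GAS alone, 7 both and 9 neither, Irf7 and Irf9 among the last. Irf1 and Irgm1 are shown because they are the ISGs that passed the test between the models, Gbp7 and Oas3 because they moved in opposite directions within NPCTKO, and Ifit1 because it had the largest positive fold change. Capitals mark matches to either motif, and all are written 5′ to 3′ on the strand of the gene.
Irf1, chr11:53769764-53770063, plus strand: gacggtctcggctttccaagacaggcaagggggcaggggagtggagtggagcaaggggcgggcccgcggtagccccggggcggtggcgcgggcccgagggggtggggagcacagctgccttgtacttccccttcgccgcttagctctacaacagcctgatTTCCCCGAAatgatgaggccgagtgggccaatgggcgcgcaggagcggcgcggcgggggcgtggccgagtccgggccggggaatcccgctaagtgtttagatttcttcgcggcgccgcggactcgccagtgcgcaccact
Irgm1, chr11:48871371-48871670, minus strand: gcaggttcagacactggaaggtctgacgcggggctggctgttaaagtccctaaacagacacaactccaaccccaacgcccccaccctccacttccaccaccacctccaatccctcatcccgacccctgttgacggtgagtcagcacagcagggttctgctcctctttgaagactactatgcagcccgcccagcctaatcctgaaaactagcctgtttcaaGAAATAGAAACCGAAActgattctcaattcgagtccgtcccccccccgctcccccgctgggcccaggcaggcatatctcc
Gbp7, chr3:142530086-142530385, plus strand: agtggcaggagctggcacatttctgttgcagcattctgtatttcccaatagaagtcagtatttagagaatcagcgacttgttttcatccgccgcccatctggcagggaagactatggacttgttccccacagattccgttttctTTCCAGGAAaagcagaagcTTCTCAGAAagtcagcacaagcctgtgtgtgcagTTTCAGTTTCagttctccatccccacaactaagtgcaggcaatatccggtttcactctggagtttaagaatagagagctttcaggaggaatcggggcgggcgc
Oas3, chr5:120777610-120777909, minus strand: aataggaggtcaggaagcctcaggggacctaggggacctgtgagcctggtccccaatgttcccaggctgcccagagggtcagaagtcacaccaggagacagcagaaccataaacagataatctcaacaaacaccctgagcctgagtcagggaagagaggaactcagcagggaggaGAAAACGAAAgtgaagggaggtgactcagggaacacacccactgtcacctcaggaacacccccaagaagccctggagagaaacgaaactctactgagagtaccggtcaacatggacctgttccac
Ifit1, chr19:34640639-34640938, plus strand: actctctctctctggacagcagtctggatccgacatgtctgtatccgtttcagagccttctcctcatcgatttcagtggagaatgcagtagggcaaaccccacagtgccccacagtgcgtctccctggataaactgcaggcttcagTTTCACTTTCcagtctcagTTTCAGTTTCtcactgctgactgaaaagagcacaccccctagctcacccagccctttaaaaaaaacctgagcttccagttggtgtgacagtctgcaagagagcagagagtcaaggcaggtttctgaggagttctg
With the RefSeq start of each promoter as position 0, the match in Irf1 begins at position -90 and is a GAS. Those in Irgm1 begin at -30 and -24, are ISRE cores and share 4 letters. The Irgm1 promoter shown lies inside the wider span of that gene in the count table, chr11:48861968-48871683. Gbp7 holds GAS letters from -106 and -87 and an ISRE core from -53, Oas3 an ISRE core from -75, and Ifit1 ISRE cores from -104 and -85. A match describes letters and says nothing of a factor being bound in these tumors.

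The libraries held 18433805, 17529054 and 19840860 counts in NSCHRas-shp53 and 15002873 to 19247326 counts in NPCTKO, and a count of 3, taken as the floor, stood for 0.130 to 0.234 CPM (counts scaled to the library total with TMM factors), which covers counting error only. ISGs took 0.287%, 0.360% and 0.486% of all counts in NSCHRas-shp53 samples 1 to 3, against 0.602%, 0.634%, 0.384% and 0.494% in NPCTKO samples 1 to 4. Mitochondrial genes took 1.79% to 5.39% of counts in NSCHRas-shp53 and 0.411% to 1.15% in NPCTKO. Trp53, targeted in both models, had 54.9 to 82.3 CPM in NSCHRas-shp53 and 91.9 to 200.7 CPM in NPCTKO, and Nf1, targeted in NPCTKO, had 98.4 to 133.2 CPM in NSCHRas-shp53 against 41.6, 46.2, 230.2 and 158.7 CPM in NPCTKO, where counts over a whole gene do not show an edit. Igtp, an IRG whose gene overlaps that of Irgm2, had 0, 1 and 3 counts in NSCHRas-shp53 against 1, 0, 2 and 1 in NPCTKO and did not pass the filter on low counts, and the other 41 ISGs were tested.

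Between the models, few ISGs passed the test, which has little power for changes of this size. In counts simulated from these libraries, the edgeR fit called 0 of 49 genes with a 2-fold change and 7 of 49 with a 4-fold change. An ISG that was not called is thus not shown to be equal between the models. By edgeR with an adjusted p under 0.05 over all 16091 genes tested, 0 of 41 ISGs were higher in NSCHRas-shp53, where 7.77% of all genes were, and 2 were lower, Irf1 and Irgm1, which is 4.88% of the ISGs where 5.28% of all genes were lower. At an unadjusted p under 0.05, 2 ISGs were higher (4.88%, where 15.2% of all genes were) and 8 were lower in NSCHRas-shp53 (19.5%, where 15.1% were). DESeq2 called 2 higher, Ifit1 and Ifit3b (4.88%, where 12.6% of all genes were), and 8 lower (19.5%, where 11.9% were). The share called lower was thus near that of all genes with edgeR and above it with DESeq2, and the share called higher was below it with both, and nothing particular to ISGs is read from these shares. The median log2 fold change, NSCHRas-shp53 minus NPCTKO, was -0.48 over ISGs and -0.10 over all genes, with 14 ISGs above and 27 below 0. With a correction for the GC content and length of transcripts, chosen after seeing the data, the split became 9 against 32, the median became -0.50 over ISGs and -0.29 over all genes, and 0 ISGs were called higher (where 9.25% of all genes were) and 7 lower (17.1%, where 14.0% were). Without NPCTKO samples 1 and 2, the ISG median turned to 0.26, against 0.04 over all genes. In bulk RNA, fewer cells of a type and less RNA per cell cannot be told apart.

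**Figure D1:**
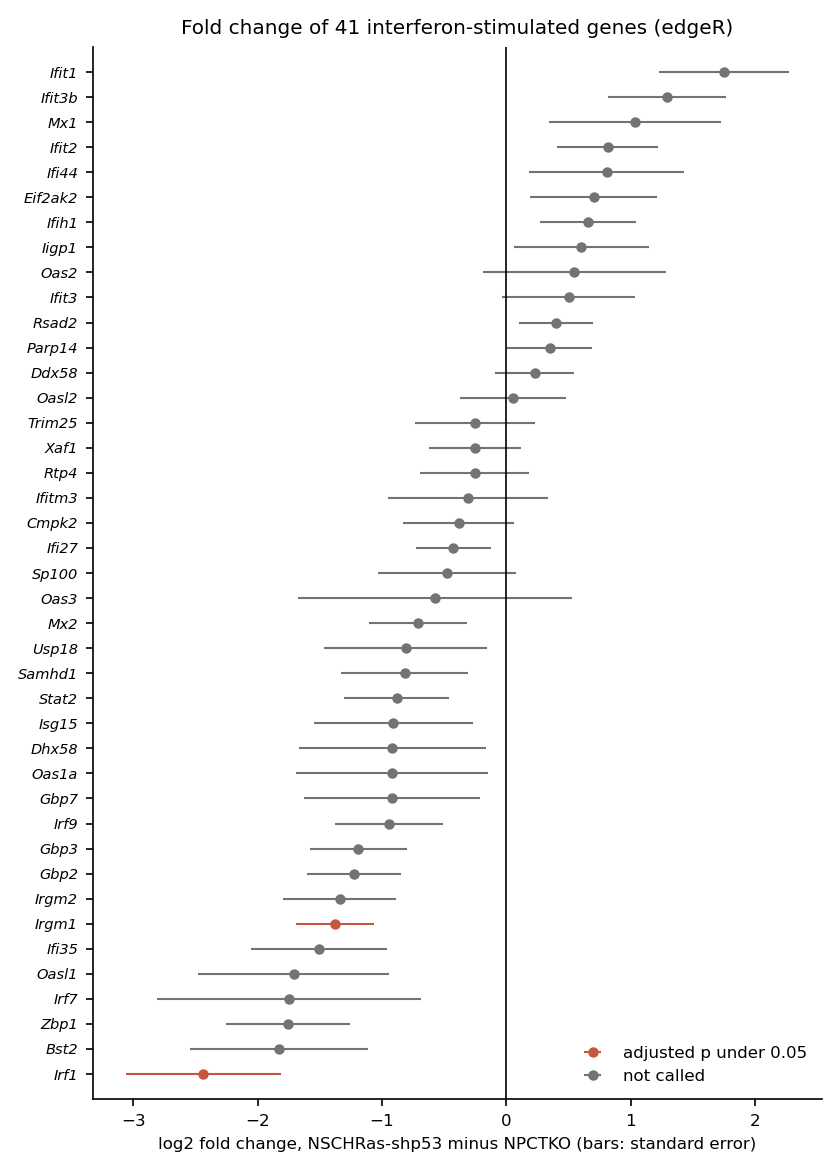
The log2 fold change of each of the 41 ISGs tested (x axis, NSCHRas-shp53 minus NPCTKO, edgeR) with its standard error, genes ordered by fold change from the highest at the top. Irf1 and Irgm1, in red, are the genes with an adjusted p under 0.05, Ifit1 lies at the top with 1.75 and Irf1 at the bottom with -2.44.

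Among the transcription factors that carry the interferon signal, Irf1 was lower in NSCHRas-shp53. Irf1, a factor induced by interferon gamma that drives GBPs and antigen presentation, lies at chr11:53770014-53778374 on mm10. It had 135.4, 60.4 and 69.7 CPM in NSCHRas-shp53 samples 1 to 3, against 711.6, 767.3, 188.2 and 250.3 CPM in NPCTKO samples 1 to 4. The groups did not overlap, and NPCTKO samples 1 and 2 stood far above samples 3 and 4. Its log2 fold change was -2.44 (SE 0.63, edgeR adjusted p = 0.0390). The call was lost without NPCTKO 1 (adjusted p = 0.0766), NPCTKO 2 (0.0745), NSCHRas-shp53 1 (0.0692), 2 (0.158) or 3 (0.168). With NPCTKO 1 and 2 both left out the fold change was -1.28 (adjusted p = 0.0653) and the call was lost too, and over all alternatives the fold change ran between -2.84 and -1.28 with adjusted p between 0.000601 and 0.168. Irf7, the factor that amplifies type I interferon, had 101.2, 94.3 and 139.5 CPM in NSCHRas-shp53 against 854.3, 528.1, 16.4 and 101.6 CPM in NPCTKO. The NSCHRas-shp53 values fell inside the span of the NPCTKO values, whose highest was 52.1 times the lowest. Irf9, the DNA-binding part of ISGF3, averaged 63.1 ± 8.39 CPM in NSCHRas-shp53 (SD, n = 3) and 121.5 ± 61.3 CPM in NPCTKO (SD, n = 4), a log2 fold change of -0.95 (SE 0.44, edgeR adjusted p = 0.184) that came to -0.10 without NPCTKO 1 and 2. Stat2, its partner, averaged 115.8 ± 48.0 CPM in NSCHRas-shp53 and 213.1 ± 72.5 CPM in NPCTKO (SD, n = 3 and 4). Reads of Irf9 are shared with the neighbouring Rnf31 in the FPKM table, so that the split between these genes rests on the counts.

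Among the interferon-inducible GTPases, proteins that attack the vacuoles and membranes around microbes, Irgm1 was lower in NSCHRas-shp53 and the levels of Gbp2, Gbp3 and Irgm2 also lay below those of NPCTKO in every library. Irgm1, an IRG that restrains the other IRGs, lies at chr11:48861968-48871683 on mm10. It had 148.3, 168.0 and 244.6 CPM in NSCHRas-shp53 samples 1 to 3, against 483.2, 530.3, 467.9 and 465.9 CPM in NPCTKO samples 1 to 4. The NPCTKO values were nearly level, with a ratio of highest to lowest of 1.14, and no other ISG tested had a smaller ratio there. The log2 fold change of Irgm1 was -1.38 (SE 0.31, edgeR adjusted p = 0.0265). Its call was lost without TMM factors (-1.15, adjusted p = 0.0589) and without NPCTKO 1 (0.0557), NPCTKO 2 (0.0603), NSCHRas-shp53 1 (0.107), 2 (0.128) or 3 (0.0683), while it was kept with NPCTKO 1 and 2 both left out (-1.29, adjusted p = 0.0310), and over all alternatives adjusted p ran between 2.401e-05 and 0.128. Gbp2, a GBP that responds strongly to interferon gamma, had 136.6, 150.0 and 236.9 CPM in NSCHRas-shp53 against 418.6, 586.2, 283.0 and 345.2 CPM in NPCTKO. Its groups did not overlap, and its log2 fold change of -1.23 (SE 0.38) missed the threshold (edgeR adjusted p = 0.0681). Gbp2 was called in 5 of 19 alternatives, among them DESeq2 (adjusted p = 0.0108) and edgeR with the GC and length correction (0.0216). Its fold change was -1.37 and called without NPCTKO 3 (adjusted p = 0.0427), and -0.82 without NPCTKO 1 and 2 (adjusted p = 0.110). Of the 6 GTPases tested, Irgm1, Irgm2, Gbp2 and Gbp3 had an unadjusted p under 0.05 by edgeR, and DESeq2 called the same 4. In all, 6 of 41 ISGs lay below every NPCTKO library in all NSCHRas-shp53 libraries (Irf1, Zbp1, Irgm1, Irgm2, Gbp2 and Gbp3), which is 14.6% where 14.9% of all genes did so, and 0 lay above, where 16.3% of all genes did.

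The rest of the GTPases split within NPCTKO. Irgm2 had 34.6, 52.0 and 92.8 CPM in NSCHRas-shp53 against 174.9, 226.0, 95.0 and 110.4 CPM in NPCTKO. Gbp3 had 70.3, 103.8 and 112.3 CPM in NSCHRas-shp53 against 136.8, 153.8, 298.5 and 283.0 CPM in NPCTKO, so that here NPCTKO samples 3 and 4 were the high ones. Gbp7 showed the same order more widely, with 37.9, 71.4 and 99.1 CPM in NSCHRas-shp53 against 30.8, 62.5, 275.1 and 157.9 CPM in NPCTKO, and its groups overlapped. Iigp1, an IRG that loads onto parasite vacuoles, had 80.4, 139.0 and 193.1 CPM in NSCHRas-shp53 against 31.6, 59.0, 139.0 and 132.4 CPM in NPCTKO, with NPCTKO 1 and 2 below all other libraries. The reads of Igtp and Irgm2 form a common row of the FPKM table, and their overlap leaves the part of Igtp in these values unknown.

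**Figure D2:**
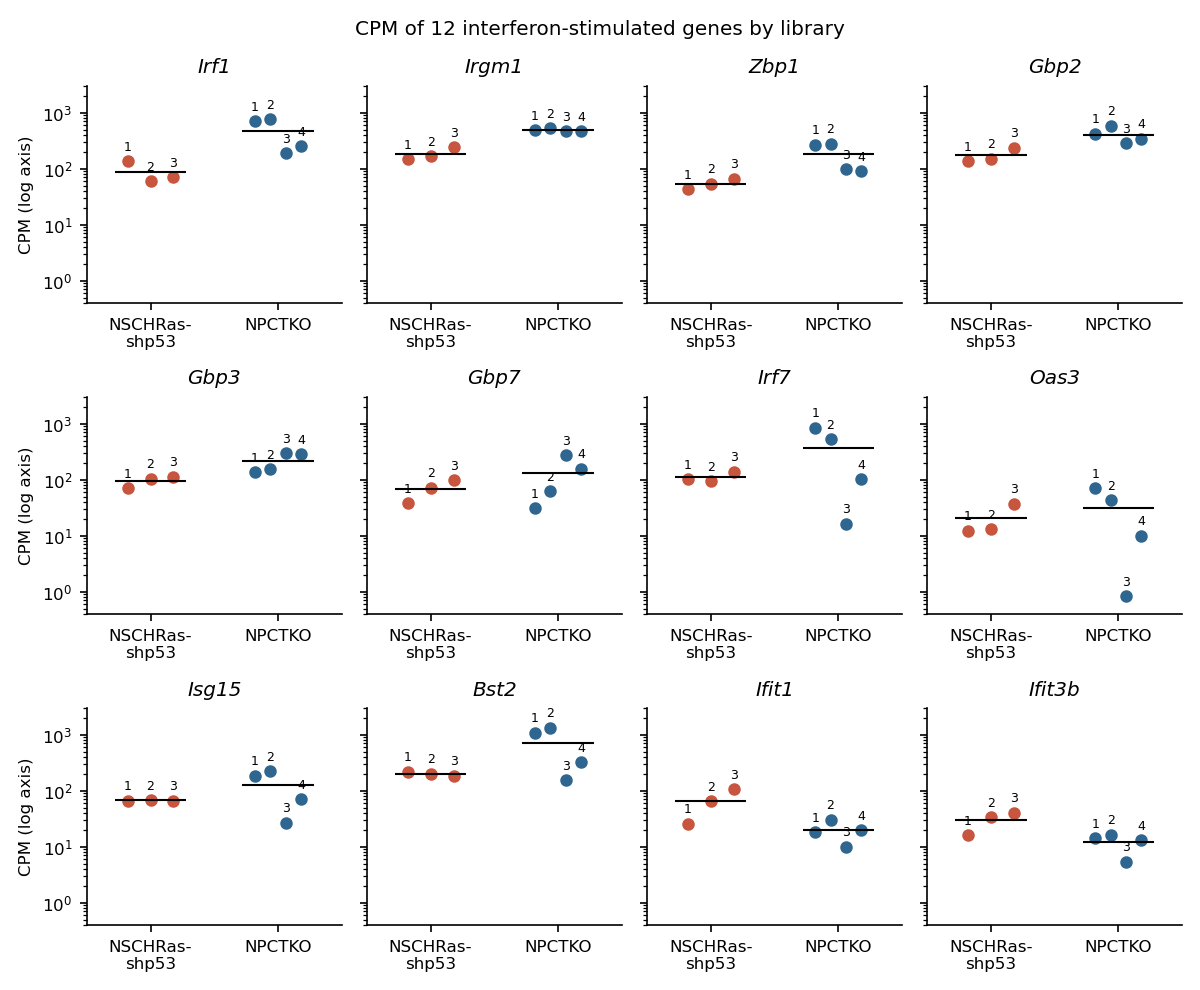
CPM on a log axis for 12 ISGs in each library, NSCHRas-shp53 left of NPCTKO in every panel, points numbered by sample and lines at the group means. Irgm1 is level over the 4 NPCTKO samples, Irf7 and Oas3 fall far below the others in NPCTKO sample 3, and Gbp3 and Gbp7 are highest there.

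The IFIT genes, which encode proteins that bind viral RNA lacking the methyl marks of host RNA, were the family with positive fold changes for all 4 members, and 0 passed the edgeR test, whereas Ifit1 and Ifit3b had an unadjusted p under 0.05 and were called by DESeq2. Ifit1 had 25.8, 65.2 and 105.7 CPM in NSCHRas-shp53 samples 1 to 3, against 17.96, 30.5, 9.95 and 19.6 CPM in NPCTKO samples 1 to 4. NSCHRas-shp53 samples 2 and 3 were above all NPCTKO samples, and sample 1 lay between NPCTKO 4 and NPCTKO 2. The log2 fold change of Ifit1 was 1.75 (SE 0.52, edgeR adjusted p = 0.0613), and of Ifit3b 1.29 (SE 0.47, edgeR adjusted p = 0.108). Without NSCHRas-shp53 1 the edgeR adjusted p of Ifit1 was 0.0427, without sample 2 it was 0.163 and without sample 3 it was 0.262 (log2 fold change 1.23). It was 0.0417 without TMM factors. With the GC and length correction the log2 fold change of Ifit1 was 1.11 (edgeR adjusted p = 0.193). Ifit3b had 16.01, 33.6 and 40.5 CPM in NSCHRas-shp53 against 14.3, 16.5, 5.37 and 12.9 CPM in NPCTKO, which put NSCHRas-shp53 sample 1 just below NPCTKO sample 2. Ifit3, the most abundant of the family, had 60.8, 118.3 and 158.2 CPM in NSCHRas-shp53 against 87.0, 142.6, 30.0 and 57.7 CPM in NPCTKO. Ifit2 averaged 68.3 ± 35.3 CPM in NSCHRas-shp53 and 38.8 ± 10.1 CPM in NPCTKO (SD, n = 3 and 4). Ifit3 and Ifit3b are near-identical neighbours and reads may be split between them. The signs of the 4 IFIT genes held with size factors, without TMM factors, with DESeq2 and with the GC and length correction.

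ISG15 is a ubiquitin-like protein that is attached to other proteins, USP18 removes it and also damps the type I receptor, and TRIM25 is a ubiquitin ligase that helps RIG-I. Of these 3 genes, 0 passed the edgeR test, 0 had an unadjusted p under 0.05 and 0 were called by DESeq2. Isg15 had 66.3, 68.0 and 66.7 CPM in NSCHRas-shp53 against 184.5, 222.1, 26.9 and 70.2 CPM in NPCTKO. Its NSCHRas-shp53 samples were nearly the same, while those of NPCTKO spread on either side of them. The log2 fold change of Isg15 was -0.91 (SE 0.64, edgeR adjusted p = 0.373), and without NPCTKO 1 and 2 it was 0.50. Usp18 had 10.2, 8.02 and 17.99 CPM in NSCHRas-shp53 against 33.8, 34.9, 6.67 and 9.31 CPM in NPCTKO, with a log2 fold change of -0.81 (SE 0.66, edgeR adjusted p = 0.442) that turned to 0.63 without NPCTKO 1 and 2. Trim25 averaged 153.1 ± 100.5 CPM in NSCHRas-shp53 and 182.4 ± 55.5 CPM in NPCTKO (SD, n = 3 and 4), and NSCHRas-shp53 sample 1 had the highest value of all libraries, 265.4 CPM.

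Of the sensors of RNA and other nucleic acids, 0 of 5 passed the edgeR test, and only Zbp1 had an unadjusted p under 0.05 and was called by DESeq2. Zbp1, a sensor of left-handed nucleic acid that can start necroptosis, had 42.7, 54.0 and 66.3 CPM in NSCHRas-shp53 against 267.5, 278.5, 97.4 and 90.7 CPM in NPCTKO. The groups did not overlap, and NPCTKO 1 and 2 again stood far above 3 and 4. Its log2 fold change was -1.76 (SE 0.50, edgeR adjusted p = 0.0528). It was called without NPCTKO 3 (-1.96, adjusted p = 0.0289) or NPCTKO 4 (-1.98, 0.0372), and it was -0.76 without NPCTKO 1 and 2 (0.0770). Ifih1, which encodes the RNA sensor MDA5, had 43.8, 38.3 and 73.7 CPM in NSCHRas-shp53 against 23.8, 26.8, 28.03 and 53.1 CPM in NPCTKO, a log2 fold change of 0.66 (SE 0.38, edgeR adjusted p = 0.289, and 0.39 without NPCTKO 1 and 2), with NPCTKO 4 inside the span of NSCHRas-shp53. Eif2ak2, which encodes the RNA-activated kinase PKR that stops translation, had 49.8, 49.8 and 93.6 CPM in NSCHRas-shp53 against 14.6, 28.1, 48.3 and 67.2 CPM in NPCTKO. Dhx58, which encodes the RNA sensor LGP2, went the other way within NPCTKO, with 18.9, 12.3 and 24.5 CPM in NSCHRas-shp53 against 56.9, 62.2, 5.89 and 15.4 CPM in NPCTKO. Ddx58, the gene of the RNA sensor RIG-I, stayed between 48.2 and 106.0 CPM in NSCHRas-shp53 and between 54.2 and 71.2 CPM in NPCTKO.

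The OAS enzymes make a short RNA-like messenger that activates RNase L, and in mouse Oasl1 is known to hold back translation of Irf7. Of the 5 genes, 0 passed the edgeR test, 0 had an unadjusted p under 0.05 and 0 were called by DESeq2, but Oas1a, Oas2, Oas3 and Oasl1 had ratios of the highest to the lowest library of 11.4 to 83.9 within NPCTKO. Oas3 had 12.3, 13.1 and 37.0 CPM in NSCHRas-shp53 against 70.0, 43.1, 0.83 and 9.97 CPM in NPCTKO. NPCTKO sample 3 had 16 counts of Oas3 where sample 1 had 1040, and the CPM of sample 1 was 83.9 times that of sample 3. Oas1a had 43.7, 44.3 and 65.2 CPM in NSCHRas-shp53 against 160.4, 166.6, 11.8 and 47.2 CPM in NPCTKO, a log2 fold change of -0.92 (SE 0.77, edgeR adjusted p = 0.459), which turned to 0.83 without NPCTKO 1 and 2. Oasl1 had 75.3, 25.3 and 40.2 CPM in NSCHRas-shp53 against 277.6, 216.8, 24.4 and 95.4 CPM in NPCTKO, a log2 fold change of -1.71 (SE 0.77, edgeR adjusted p = 0.174). It was called without NPCTKO 3 (-2.07, adjusted p = 0.0373) and came to -0.31 without NPCTKO 1 and 2 (adjusted p = 0.761). Its NSCHRas-shp53 samples lay between NPCTKO 3 and NPCTKO 4. Oas2 had 22.4, 48.3 and 66.9 CPM in NSCHRas-shp53 against 49.7, 48.0, 3.96 and 24.1 CPM in NPCTKO. Oasl2 averaged 159.8 ± 69.0 CPM in NSCHRas-shp53 and 153.7 ± 58.0 CPM in NPCTKO (SD, n = 3 and 4). Oas1a and its near copy Oas1g share a row of the FPKM table, so that their split is uncertain.

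Of the 7 restriction factors, which block the entry, copying or release of viruses, 0 passed the edgeR test, and only Bst2 had an unadjusted p under 0.05 and was called by DESeq2. Bst2, the gene of tetherin that holds budding virus at the cell surface, had 219.4, 201.5 and 186.9 CPM in NSCHRas-shp53 against 1079, 1325, 155.5 and 321.1 CPM in NPCTKO. The NSCHRas-shp53 samples were close to each other, below NPCTKO 1, 2 and 4 and above NPCTKO 3. The log2 fold change of Bst2 was -1.83 (SE 0.72, edgeR adjusted p = 0.129) and it was called without NPCTKO 3 (-2.16, adjusted p = 0.0333), but it came to -0.20 without NPCTKO 1 and 2 (adjusted p = 0.708). Ifitm3, a membrane protein that blocks fusion of virus, had 311.5, 345.2 and 250.6 CPM in NSCHRas-shp53 against 593.0, 563.5, 67.3 and 274.7 CPM in NPCTKO. Its small negative fold change became positive without TMM factors and with the GC and length correction, so that it has no stable direction. Mx2, a dynamin-like GTPase against viruses, had a log2 fold change of -0.71 (SE 0.40, edgeR adjusted p = 0.267, and -0.17 without NPCTKO 1 and 2), with 17.3, 20.2 and 28.2 CPM in NSCHRas-shp53 against 43.9, 49.0, 18.4 and 31.9 CPM in NPCTKO. Mx1, which encodes a damaged protein in many laboratory mice, had 22.8, 30.6 and 59.8 CPM in NSCHRas-shp53 against 33.0, 26.0, 3.49 and 11.2 CPM in NPCTKO. Rsad2, the gene of viperin, which makes a chain-terminating nucleotide, was among the flattest of the ISGs within NPCTKO with 43.7 to 56.9 CPM, against 44.1 to 87.8 CPM in NSCHRas-shp53. Its neighbour Cmpk2 averaged 35.5 ± 11.0 CPM in NSCHRas-shp53 and 46.3 ± 22.9 CPM in NPCTKO, and Samhd1, which breaks down nucleotides, averaged 117.2 ± 27.2 CPM in NSCHRas-shp53 and 206.5 ± 105.7 CPM in NPCTKO (SD, n = 3 and 4).

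Of the 7 remaining ISGs, 0 passed the edgeR test, and only Ifi35 had an unadjusted p under 0.05 and was called by DESeq2. Ifi35 had 25.6, 27.7 and 23.4 CPM in NSCHRas-shp53 against 100.5, 123.6, 24.2 and 43.2 CPM in NPCTKO, a log2 fold change of -1.51 (SE 0.55, edgeR adjusted p = 0.106). It was called without NPCTKO 3 (-1.80, adjusted p = 0.0263) and came to -0.36 without NPCTKO 1 and 2 (adjusted p = 0.431). Only NPCTKO 3 lay within the span of NSCHRas-shp53. Ifi27 had 147.6, 169.7 and 128.9 CPM in NSCHRas-shp53 against 214.2, 264.9, 167.1 and 152.8 CPM in NPCTKO, a log2 fold change of -0.43 (SE 0.30, edgeR adjusted p = 0.378) that came to -0.07 without NPCTKO 1 and 2. Ifi44 had 19.5, 42.9 and 76.7 CPM in NSCHRas-shp53 against 15.0, 31.9, 9.95 and 49.1 CPM in NPCTKO and was highest in sample 4 among the NPCTKO samples. Sp100, a component of nuclear bodies, had 36.2, 34.5 and 58.9 CPM in NSCHRas-shp53 against 86.8, 79.4, 14.3 and 60.3 CPM in NPCTKO. Rtp4 averaged 40.7 ± 15.5 CPM in NSCHRas-shp53 and 48.6 ± 19.2 CPM in NPCTKO (SD, n = 3 and 4). Parp14, an ADP-ribosyltransferase, averaged 77.2 ± 31.4 CPM in NSCHRas-shp53 and 60.6 ± 13.4 CPM in NPCTKO, and Xaf1, a gene tied to apoptosis, averaged 58.6 ± 22.7 CPM in NSCHRas-shp53 and 69.9 ± 20.7 CPM in NPCTKO (SD, n = 3 and 4). The signs of Rtp4 and Xaf1 turned without TMM factors, and those of Ifi44 and Parp14 with the GC and length correction.

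Per length, on the FPKM scale of the deposited Cufflinks table, Ifitm3 and Bst2 were the most abundant ISGs. Ifitm3 had 763.6, 895.8 and 630.9 FPKM in NSCHRas-shp53 against 1258, 1215, 173.3 and 648.8 FPKM in NPCTKO. Bst2 had 329.8, 381.0 and 310.4 FPKM in NSCHRas-shp53 against 1515, 1820, 272.5 and 508.0 FPKM in NPCTKO, so that Ifitm3 led in NSCHRas-shp53 and in NPCTKO 4 and Bst2 in NPCTKO 1 to 3. Irgm1, level in NPCTKO by CPM, had 59.4, 81.3 and 113.8 FPKM in NSCHRas-shp53 against 253.7, 261.7, 203.5 and 201.8 FPKM in NPCTKO. At the low end, Oas3 had 2.44, 4.32 and 9.37 FPKM in NSCHRas-shp53 against 15.99, 8.87, 0.188 and 2.73 FPKM in NPCTKO. The FPKM of all rows summed to 426900 to 553300 in NSCHRas-shp53 and to 972400, 952500, 419400 and 469600 in NPCTKO, so the FPKM of NPCTKO 1 and 2 are not on the same total as the rest.

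The 4 NPCTKO samples spread widely in their ISGs. NPCTKO sample 3 was the lowest of the 4 for 29 of 41 ISGs, or 70.7%, where it was the lowest for 33.1% of all genes, and the highest for 3, Iigp1, Gbp3 and Gbp7, or 7.32%, where it was the highest for 29.5% of all genes. The median difference in log2(CPM + 1) of sample 3 from the mean of the other 3 was -1.08 over ISGs and -0.03 over all genes. By role, all 5 OAS genes, all 4 transcription factors, all 3 genes of the ISG15 system, 6 of 7 restriction factors, 3 of 4 IFIT genes, 4 of the 7 remaining ISGs, 2 of 5 sensors and 2 of the 6 GTPases tested were lowest in sample 3, and the difference between roles was not tested. Without TMM factors sample 3 was lowest for 24 of 41 ISGs, where 23.8% of all genes were, and by FPKM for 25 of 36, where 34.2% were. Samples 1 and 2 were both above samples 3 and 4 for 30 ISGs, or 73.2% where 37.9% of all genes were, and both below for 6, Ifit2, Ifih1, Eif2ak2, Iigp1, Gbp3 and Gbp7, or 14.6% where 36.3% were. No test was made, since the samples share a label and differ by nothing the labels name.

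**Figure D3:**
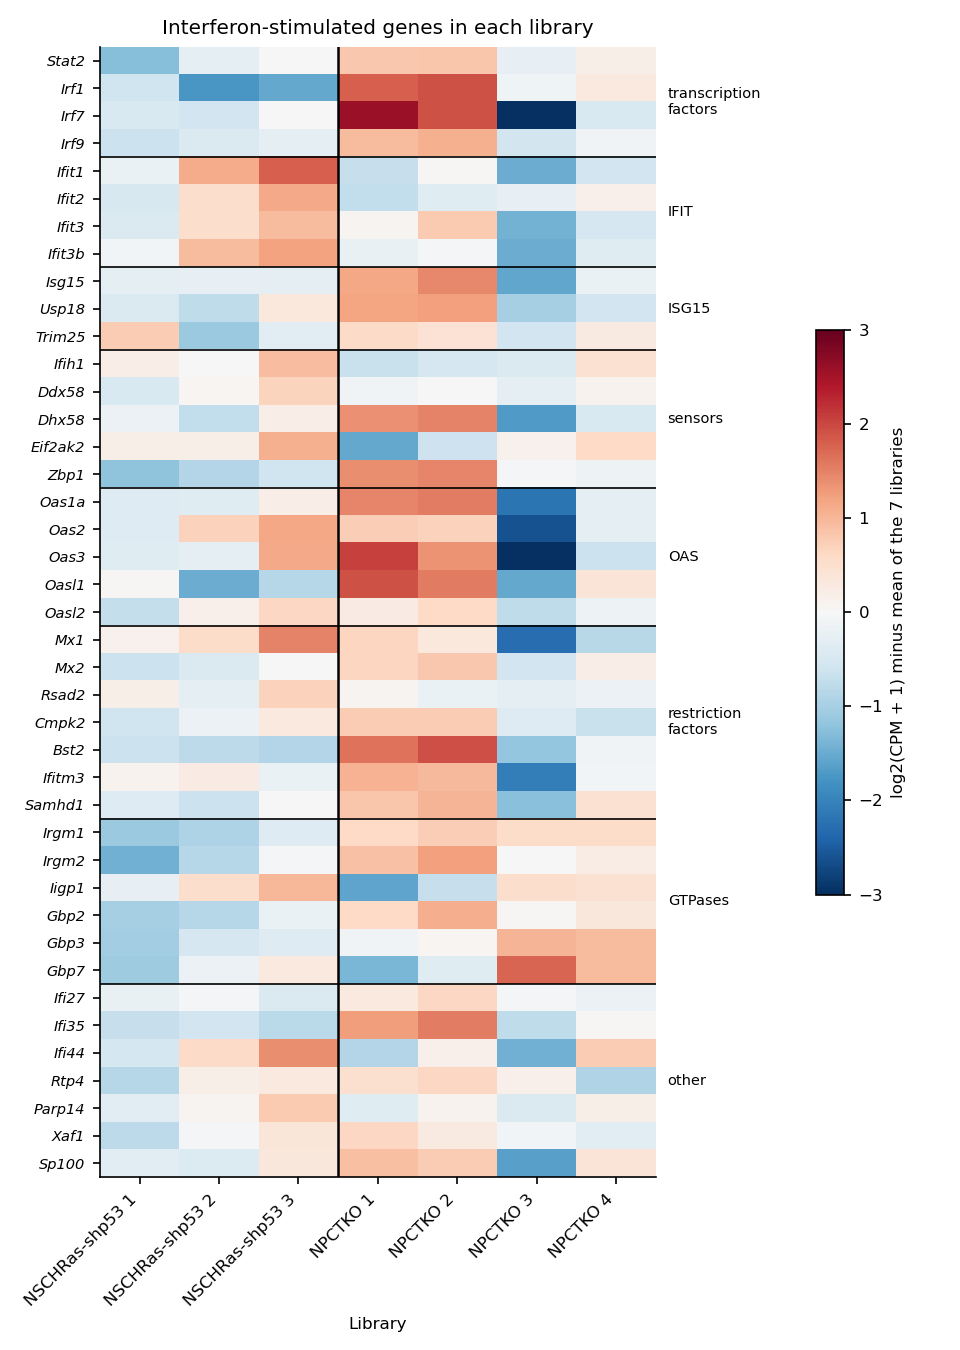
Log2(CPM + 1) of each ISG minus its mean over the 7 libraries, genes in rows by role and libraries in columns with NSCHRas-shp53 left of NPCTKO, the colors cut at 3 in either direction. Most rows are red in NPCTKO 1 and 2 and blue in NPCTKO 3, Irgm1 is even across NPCTKO, and Iigp1, Gbp3, Gbp7 and Eif2ak2 run the other way.

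The ISGs that were low in NPCTKO 1 and 2 had transcripts poor in G and C, and those that were high there were near the median of all genes. Transcript GC content was 45.3% to 56.3% with a median of 50.8% for the 30 ISGs that were higher in samples 1 and 2, where the median of all genes with a known GC content was 49.6%, and 39.3% to 45.9% with a median of 42.4% for the 6 that were lower. The other 5 ISGs had 40.4% to 46.6%. Across the 41 ISGs, the Spearman correlation of GC content with the difference in log2(CPM + 1) was 0.76 for NPCTKO 1 minus 3, 0.83 for 1 minus 4, 0.71 for 2 minus 3 and 0.82 for 2 minus 4. Over 15674 genes with a known GC content the same values were 0.59, 0.62, 0.53 and 0.55, so that the relation was present in the libraries as a whole. These are descriptions across genes, whose values come from the same libraries and are not independent. Irf7, with a GC content of 55.4%, and Oas3, with 54.6%, lay at the high end, and Gbp7, with 41.7%, and Iigp1, with 39.3%, at the low end. With the trends with GC content and length taken out of each library, sample 3 was the lowest for 31 of 41 ISGs, where it was the lowest for 26.9% of all genes. The split of samples 1 and 2 from 3 and 4 was not counted after this correction, and the part of GC content in it was not tested.

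**Figure D4:**
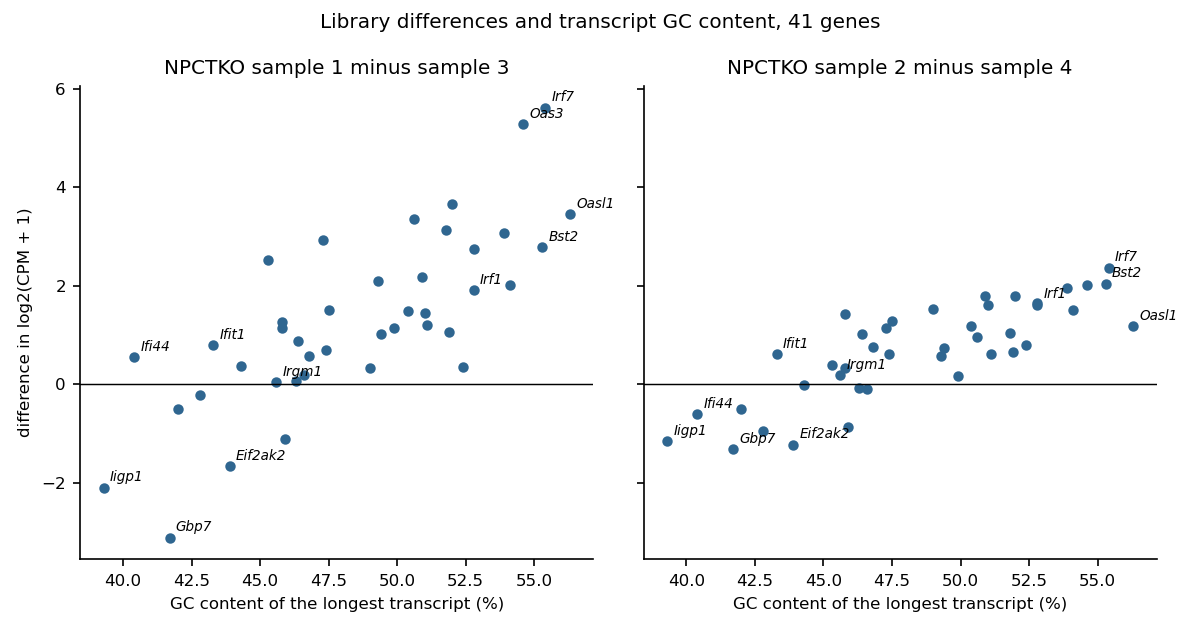
GC content of the longest transcript (x axis, percent) against the difference in log2(CPM + 1) between NPCTKO samples 1 and 3 (left) and 2 and 4 (right), with a point for each of the 41 ISGs. Points climb with GC content in both panels, with Irf7 at 55.4% high and Gbp7 at 41.7% and Iigp1 at 39.3% low.

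Markers of several cell types, but not of all, moved with the same samples. Neuron markers ran the other way, with 26.0 and 25.1 CPM in NPCTKO 1 and 2 and 46.2 and 45.4 CPM in 3 and 4. Astrocyte markers were highest in NPCTKO 4 (528.9 CPM), and oligodendrocyte markers were lowest there (821.5 CPM). The 20 markers of microglia and macrophages summed to 10550, 3619 and 5434 CPM in NSCHRas-shp53 samples 1 to 3, against 23280, 28920, 751.0 and 5038 CPM in NPCTKO samples 1 to 4, and 18 of the 20 were lowest in NPCTKO 3. C1qa, a complement gene of microglia, had 1699, 605.9 and 618.7 CPM in NSCHRas-shp53 against 6884, 8368, 132.9 and 948.1 CPM in NPCTKO, and P2ry12, which lies inside other genes of the table, had 0 counts in all libraries. Not every marker of the list was high in NPCTKO 1 and 2. Ptprc had 122.9, 78.6 and 138.3 CPM in NSCHRas-shp53 against 40.8, 51.9, 20.7 and 105.5 CPM in NPCTKO. By edgeR, 1 of the 20 markers was called higher and 0 lower in NSCHRas-shp53. Of the ISGs, 16 followed the order of the microglial sum within NPCTKO (samples 2, 1, 4 and 3 from high to low), or 39%, where 13.4% of all genes did. They include Irf1, Isg15, Bst2 and Gbp2 and not Irgm1. The order was not particular to microglia, since the 10 endothelial markers summed to 338.4, 214.8, 207.0 and 35.5 CPM in NPCTKO samples 2, 1, 4 and 3. Markers of oligodendrocyte precursors were also higher in NPCTKO 1 and 2 (4248 and 5411 CPM) than in 3 and 4 (2404 and 2272 CPM). The 11 markers of T and NK cells summed to 27.7 to 77.9 CPM in NSCHRas-shp53 and 11.9 to 71.1 CPM in NPCTKO, again lowest in sample 3, and the 4 B cell markers to 1.73 to 4.48 CPM in NSCHRas-shp53 against 105.5, 77.9, 1.77 and 2.96 CPM in NPCTKO, with Ms4a1 at 0 in all. The 6 granulocyte and monocyte markers summed to 81.0 to 138.4 CPM in NSCHRas-shp53 against 564.9, 394.9, 10.6 and 75.7 CPM in NPCTKO, and the 5 of plasmacytoid dendritic cells, which make type I interferon, to 55.0, 6.34 and 8.17 CPM in NSCHRas-shp53 against 51.6, 27.4, 1.35 and 4.17 CPM in NPCTKO, with Cox6a2 at 0 in all. NPCTKO was sorted for the tumor label, and what part these cell types, or the GC trend, have in the ISG values was not tested.

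Markers of astrocytes, neurons and vessel cells were higher and those of oligodendrocyte precursors lower in all NSCHRas-shp53 samples than in all NPCTKO samples, by summed CPM. The 8 astrocyte markers summed to 2685 to 3888 CPM in NSCHRas-shp53 and 212.7 to 528.9 CPM in NPCTKO, with 7 called higher in NSCHRas-shp53 by edgeR and Gfap, which lies inside other genes of the table, at 0 in all libraries. The 7 neuron markers summed to 313.2 to 599.8 CPM in NSCHRas-shp53 and 25.1 to 46.2 CPM in NPCTKO, the 10 endothelial markers to 549.7 to 1054 CPM in NSCHRas-shp53 and 35.5 to 338.4 CPM in NPCTKO, and the 8 mural markers to 281.9 to 447.7 CPM in NSCHRas-shp53 and 37.1 to 110.1 CPM in NPCTKO. The 6 markers of oligodendrocyte precursors, a cell type whose genes such tumors often express, summed to 487.0 to 854.8 CPM in NSCHRas-shp53 and 2272 to 5411 CPM in NPCTKO, with 4 called lower and Gpr17 at 0 in all, while the 6 oligodendrocyte markers, with 0 called by edgeR, overlapped at 1001 to 7664 CPM in NSCHRas-shp53 and 821.5 to 5782 CPM in NPCTKO. The part of this difference in make-up in the values of Irf1 and Irgm1 was not tested.

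**Figure D5:**
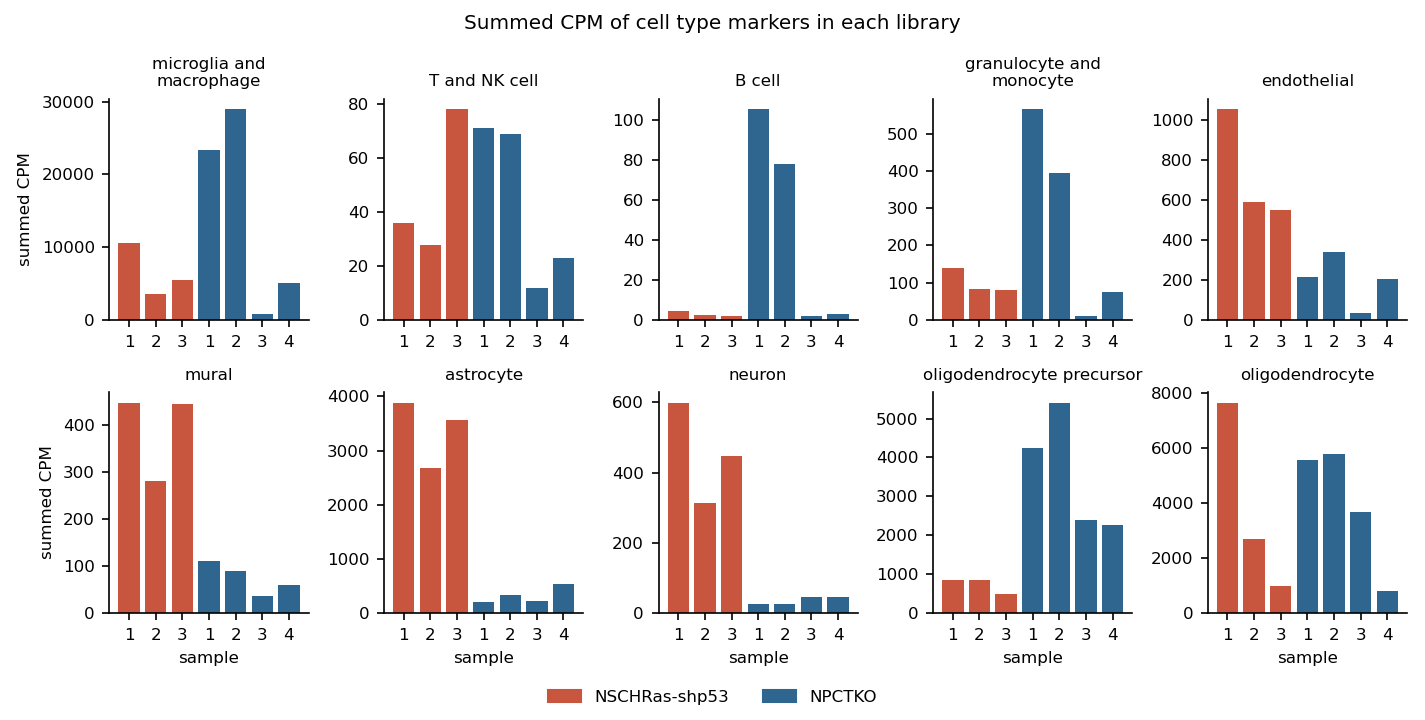
Summed CPM of 10 lists of cell type markers (bars from 0, a scale for each panel) in NSCHRas-shp53 samples 1 to 3 (red, left) and NPCTKO samples 1 to 4 (blue, right). Microglia and macrophage markers reach 28920 CPM in NPCTKO 2 and 751.0 in NPCTKO 3, and astrocyte and neuron markers are higher in all NSCHRas-shp53 samples.

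Within NSCHRas-shp53 the ISGs moved together in another order. Sample 3 was the highest of the 3 for 33 of 41 ISGs, or 80.5% where 30.8% of all genes were, and sample 1 was the lowest for 26, or 63.4% where 37.3% were. The order 3, 2, 1 from high to low held for 25 ISGs, or 61%, where 17.7% of all genes had it. All 4 IFIT genes and all 6 GTPases tested followed it, for instance Ifit1 with 25.8, 65.2 and 105.7 CPM and Iigp1 with 80.4, 139.0 and 193.1 CPM in samples 1 to 3. Irf1, Trim25, Oasl1 and Bst2 were instead highest in sample 1, which is 9.76% of the ISGs where 36.0% of all genes were. Microglia and macrophage markers ran in the order 1, 3, 2 in these tumors, the order of Irf1, Trim25 and Oasl1 but not that of most ISGs. T and NK cell markers were highest in sample 3 with 77.9 CPM, against 35.7 CPM in sample 1 and 27.7 CPM in sample 2, while the mitochondrial share (5.39%, 4.19% and 1.79% in samples 1 to 3) and the oligodendrocyte markers (7664, 2708 and 1001 CPM) ran opposite to the 3, 2, 1 order of most ISGs, highest in sample 1. The part of these in the ISG values was not tested.

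Of the pathway around the ISGs, the interferons themselves had few counts. Of 20 interferon genes in the table, 13 had 0 counts in all 7 libraries. A count of 0 need not mean no RNA, since Ifnk and Ifnl2 among these had up to 0.172 and 0.278 FPKM. Ifng was the only interferon gene to pass the filter on low counts, with 18, 9 and 35 counts in NSCHRas-shp53 against 11, 16, 4 and 4 in NPCTKO (log2 fold change 0.72, SE 0.75, edgeR adjusted p = 0.557). Ifng, made mainly by T and NK cells, was highest in NSCHRas-shp53 sample 3 and lowest in sample 2, from few counts. This is not the 3, 2, 1 order of most ISGs. Ifnb1, the gene of interferon beta, chosen after its values were seen, had 4, 0 and 1 counts in NSCHRas-shp53 against 19, 75, 1 and 4 counts in NPCTKO. Its counts lay mostly in NPCTKO 2 and 1, the libraries with the higher levels of most ISGs, and were too few for the test. The part of either interferon gene in the ISG values was not tested.

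All 6 receptor genes were tested and 0 were called by edgeR or DESeq2, and 0 had an unadjusted p under 0.05. Of 13 sensors upstream of interferon, 11 were tested and 0 were called by edgeR, with Tlr3, a receptor of double-stranded RNA, the only gene with an unadjusted p under 0.05 and the only DESeq2 call (log2 fold change 1.15, SE 0.41, edgeR adjusted p = 0.102). Myd88 and Irf8 lie inside other genes of the table and had 0 counts, and in the FPKM table Irf8, a factor of myeloid cells, had 44.1, 31.7 and 35.0 FPKM in NSCHRas-shp53 against 246.3, 350.0, 39.4 and 70.5 FPKM in NPCTKO. Of 9 negative regulators, 8 were tested and 0 were called by edgeR, where 3 had an unadjusted p under 0.05 and DESeq2 called Socs3, a brake on JAK kinases (log2 fold change -1.54, SE 0.56, edgeR adjusted p = 0.109).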

How the data were processed

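Bulk RNA-seq of 3 NSCHRas-shp53 and 4 NPCTKO samples was analysed. Per the labels, libraries were made from poly(A) RNA with a non-directional kit, so a gene and its antisense partner cannot be told apart. For the deposited counts, the authors trimmed reads with Cutadapt (1.16 in the submitters' processing notes) and mapped them to mm10 with TopHat2 2.1.1. How reads were counted is not given in the labels or methods. The length given for a gene in the count table is its whole span, introns included, for all 49399 genes with 1 location. Reads in introns may thus have been counted, which was not checked. In the same table, 11012 genes inside other genes hold 0 counts in all 7 libraries. The deposited FPKM come from Cufflinks 2.2.1, run by the authors, with a row per locus, of which 925 of 28538 carry several names.

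Counts were tested with edgeR 4.0.16 (TMM, filterByExpr, quasi-likelihood test, Benjamini-Hochberg adjusted p under 0.05 over all 16091 genes tested) in R 4.3.3, as NSCHRas-shp53 minus NPCTKO, with all 7 samples and no covariate. DESeq2 1.42.0, limma 3.58.1 on log2(FPKM + 0.1) and log2(FPKM + 1), size factors, no TMM factors, other filters, a replicate block and left-out libraries were alternatives. A GC and length correction was chosen after seeing the data: each library's trend with GC content and log2 length of the longest GENCODE vM21 transcript (natural splines, 5 degrees of freedom) was entered as an offset. CPM are TMM-scaled. Scripts were tested on simulated data. Fold changes are given for called ISGs and for the 2 with the smallest p of each role. Values of the other ISGs are given without a test. The members and lists were chosen with earlier results of these data known. Motifs were searched in Python 3.11.15.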

Additional observations from a re-analysis of the deposited data

How the results depend on the processing

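ISGs called lower in NSCHRas-shp53 numbered 2, and numbered 1 without TMM factors, 8 with DESeq2, 4 of 36 with limma on FPKM at either pseudocount, 7 with the GC and length correction, 5 with that correction and the replicate block, and 0 to 8 with a library left out (8 without NPCTKO 3). ISGs called higher numbered 0, and 1 without TMM factors (Ifit1), 2 with DESeq2, 1 without NPCTKO samples 1 and 2 (Mx1), and 0 to 1 with a library left out. Over all 16091 genes, 1251 were higher and 850 lower, against 2024 and 1922 with DESeq2. With a library left out 415 to 1387 were higher and 124 to 1208 lower (1208 of 15846 without NPCTKO 3). There were 1211 higher and 540 lower without TMM factors, and 1488 higher and 2253 lower with the GC and length correction. That correction with the replicate block gave 961 lower. Limma on FPKM gave 911 lower of 15126 at the smaller pseudocount and 830 at the larger. Of 16631 genes, 1488 were higher without NPCTKO 1 and 2. Without TMM factors the median over all genes moved to 0.09 and that over ISGs to -0.14, and the signs of Ifitm3, Rtp4 and Xaf1 turned. The ISG median was -0.76 to -0.21 with a library left out and 0.26 without NPCTKO 1 and 2, where Isg15 (0.50), Usp18 (0.63) and Oas1a (0.83) reversed. ISGs lowest in NPCTKO 3 numbered 29 to 35 of 41 with another NPCTKO library left out, where 35.5% to 45.6% of all genes were. Leaving out another NPCTKO library can only keep or raise this count, so it does not measure stability. The causes were not tested.

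With the replicate number as a block, 718 genes were higher and 323 lower, and 0 ISGs were called (Irf1 adjusted p = 0.0517, Irgm1 0.0840). Same-numbered samples did not all deviate together (r = 0.28, -0.19 and 0.19), where samples with different numbers had r between -0.32 and 0.35. These values do not settle whether the numbers pair the samples. The 3 and 4 samples, the overlap of genes in the count table and the sorting of NPCTKO alone limit the comparison, and Igtp, which overlaps Irgm2, was not compared.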
